A study of Mus musculus with 12 samples.

Results

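Müller glia homeostasis genes are described here in the mouse retina under oxygen-induced retinopathy (OIR). The genes are Glul, Rlbp1, Slc1a3, Kcnj10, Aqp4, Car14, Car2, Dkk3, Abca8a and Clu. They were found by name in the deposited table, which holds 57073 gene models, and each of the 10 names had a single row. The libraries came from retinas of C57BL/6 mice at postnatal day 17. In 6 libraries the mice had OIR, for which the labels give 75% oxygen, and in the other 6 the mice were kept in normoxic air. Both groups share strain, age and tissue, and the labels give no start or length of the oxygen exposure. The comparison asks how the level of each gene in the OIR retina differed from that in the age-matched normoxic retina.

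Müller glia span the whole thickness of the retina and are the main support cells of its neurons. They take up glutamate and turn it into glutamine, carry away potassium and water, buffer acid, bind retinoids for the visual cycle of cones, and export lipids and secreted proteins. In the OIR model, high oxygen stops and prunes the growing retinal capillaries of pups, and the inner retina becomes hypoxic when the pups are back in room air. Müller glia are known to respond to such stress with gliosis, in which intermediate filament genes rise and genes of these support tasks may change.

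Each library held between 17366045 and 21594618 counts in the OIR group and between 17361979 and 19390627 in the normoxic group. Levels of a gene are given as normalized CPM, in which depth differences between libraries are removed with the library total and a TMM factor. Summed over the libraries of a group, the members held between 5365 counts (Kcnj10) and 144947 counts (Glul) in OIR and between 5869 (Kcnj10) and 175530 (Glul) in normoxic libraries. All 10 passed the filter on low counts, so none was left untested. Whether each library is a different animal is not stated in the labels, so the p-values cover the spread among these libraries and no more. Replicates 4 to 6 and 1 to 3 of the normoxic group stood apart from each other, for example in the summed level of 8 pigment epithelium markers (64.7 to 74.6 against 8.28 to 9.65 in FPKM, a level per gene length and library depth). The labels do not call these sets batches, and the results on the members are therefore also given within each set.

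Of the 10 members, 4 were lower in OIR (Glul, Rlbp1, Aqp4 and Abca8a), 2 were higher (Slc1a3 and Clu) and 4 did not pass the test (Kcnj10, Car14, Car2 and Dkk3). The test was edgeR's quasi-likelihood test with Benjamini-Hochberg adjustment over 18275 genes and a threshold of 0.05. It called 31.0% of all tested genes, 16.2% as higher and 14.8% as lower in OIR. In Rlbp1, Aqp4 and Abca8a the 6 OIR libraries all lay below the 6 normoxic libraries, which held for 6.60% of all tested genes. No member had all 6 OIR libraries above the 6 normoxic ones, which held for 9.47% of all tested genes. The fold of OIR over normoxic among the 6 called members ran from 0.706 for Abca8a to 1.26 for Slc1a3, and the median absolute log2 fold change was 0.30 over the members, 0.17 over all tested genes and 0.45 over all called genes. The median signed log2 fold change was -0.14 over the members and -0.01 over all tested genes. In whole retina, fewer Müller cells and less RNA per cell cannot be told apart.

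**Figure D1:**
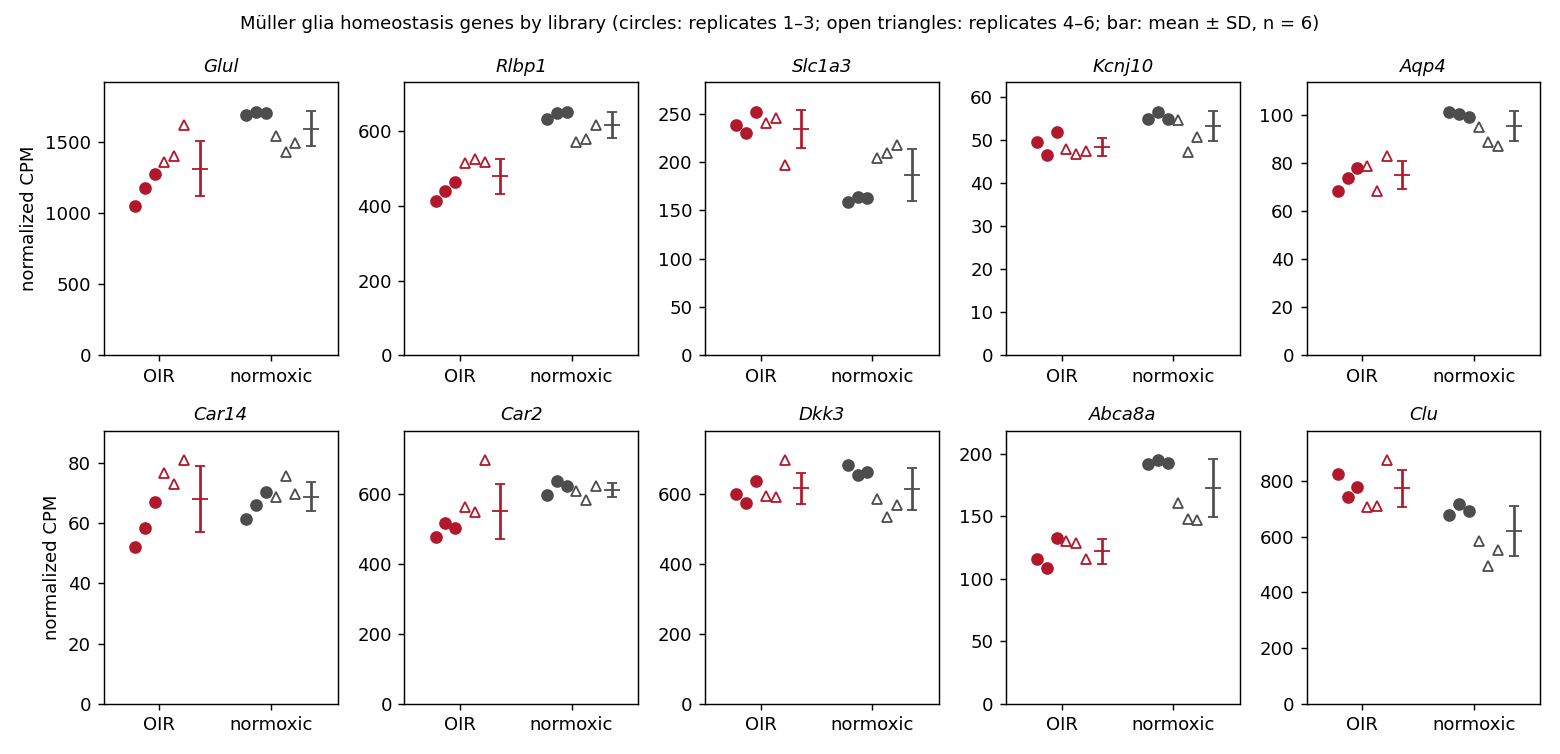
Normalized CPM of each member in every library (points), with the mean and SD of each group beside them (n = 6); filled circles are replicates 1 to 3 and open triangles replicates 4 to 6, and each axis starts at 0. The OIR points of Rlbp1, Aqp4 and Abca8a lie below all normoxic points, those of Slc1a3 and Clu lie mostly above, and those of Car14 and Dkk3 are intermixed.

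Promoter sequences of 6 of the 10 members were searched, taken from RefSeq's table of build GRCm38.p6. Those of Aqp4, Car2, Dkk3 and Clu were not searched, so the comparison leaves out members that passed the test. The 250 bases before the annotated start are shown for 3 members that fell and for Slc1a3, which rose, so that members moving in opposite directions can be compared. They are written 5′ to 3′ along the gene's strand. Capitals mark matches to ACGTG, the core of the element bound by hypoxia-inducible factors, to GCGTG, its other common form, to ACAAT, the core bound by SOX factors, and to TTCNNNGAA, the element of STAT factors, searched on both strands.
Glul, chr1:153899679-153899928, plus strand: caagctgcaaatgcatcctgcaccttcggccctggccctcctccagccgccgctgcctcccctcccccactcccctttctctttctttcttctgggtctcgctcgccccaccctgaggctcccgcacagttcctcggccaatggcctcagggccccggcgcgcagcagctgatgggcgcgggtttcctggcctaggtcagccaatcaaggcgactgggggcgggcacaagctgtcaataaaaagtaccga
Rlbp1, chr7:79387028-79387277, minus strand: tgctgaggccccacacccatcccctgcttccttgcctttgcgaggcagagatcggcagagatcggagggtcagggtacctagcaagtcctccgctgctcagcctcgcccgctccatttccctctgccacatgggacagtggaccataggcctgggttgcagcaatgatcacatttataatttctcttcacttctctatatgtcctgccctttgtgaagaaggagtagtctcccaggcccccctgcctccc
Abca8a, chr11:110095938-110096187, minus strand: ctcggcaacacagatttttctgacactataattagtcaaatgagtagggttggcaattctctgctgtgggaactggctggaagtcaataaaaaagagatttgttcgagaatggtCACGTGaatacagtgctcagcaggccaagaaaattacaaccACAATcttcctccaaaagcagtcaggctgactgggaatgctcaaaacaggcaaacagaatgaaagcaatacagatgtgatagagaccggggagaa
Slc1a3, chr15:8710808-8711057, minus strand: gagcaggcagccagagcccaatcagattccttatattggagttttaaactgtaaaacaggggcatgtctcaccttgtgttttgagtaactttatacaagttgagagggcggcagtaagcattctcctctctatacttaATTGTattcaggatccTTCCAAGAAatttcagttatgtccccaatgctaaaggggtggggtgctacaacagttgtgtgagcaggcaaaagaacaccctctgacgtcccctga
The Abca8a window held ACGTG on both strands in the overlapping letters CACGTG, 136 bases before the start, and 1 ACAAT, 95 bases before it. The Slc1a3 window held 1 ACAAT on the opposite strand, printed as its reverse complement, 112 bases before the start, and 1 TTCNNNGAA, 96 bases before it. None of the 4 motifs was found in the Glul and Rlbp1 windows. The windows of Car14 and Kcnj10, which did not pass the test, were searched but are not shown. That of Car14 held 1 ACGTG on the opposite strand, 7 bases before the start, and that of Kcnj10 held none of the 4 motifs. Across 32851 windows of the same length, 16.6% held ACGTG, 28.2% GCGTG, 27.7% ACAAT and 7.02% TTCNNNGAA. These matches describe letters and are not measurements of binding. The windows also differed in base composition, with 64.8% G and C in Glul, 57.2% in Rlbp1, 43.2% in Abca8a and 44.8% in Slc1a3.

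The glutamate pair of the members moved in opposite directions. Glul encodes glutamine synthetase, which turns glutamate taken up by Müller glia into glutamine (chromosome 1, 153775690 to 153785469 in build GRCm39). Its lowest, median and highest levels were 1047, 1314 and 1616 CPM in OIR libraries, against 1424, 1611 and 1710 CPM in normoxic libraries. In 5 of 6 OIR libraries Glul was below all normoxic libraries, and OIR replicate 6 lay inside the normoxic range. Glul averaged 1311 ± 196 CPM in OIR and 1591 ± 123 CPM in normoxic libraries (SD, n = 6 each), a log2 fold change of -0.28 ± 0.08 (SE, edgeR adjusted p = 0.015). Slc1a3 encodes GLAST, the main glutamate uptake carrier of Müller glia (chromosome 15, 8663608 to 8740248). The level of Slc1a3 had a lowest, median and highest value of 197, 239 and 252 CPM in OIR libraries, against 159, 184 and 218 CPM in normoxic libraries. Again 5 of 6 OIR libraries lay beyond all normoxic ones, here above them, and OIR replicate 6, at 197 CPM, lay inside the normoxic range. Slc1a3 averaged 234 ± 19.7 CPM in OIR and 186 ± 27.0 CPM in normoxic libraries (SD, n = 6 each), a log2 fold change of 0.33 ± 0.08 (SE, edgeR adjusted p = 0.00491). Neither call held within replicates 4 to 6, where the log2 fold change was -0.03 for Glul (edgeR adjusted p = 0.819) and 0.11 for Slc1a3 (edgeR adjusted p = 0.297), nor with the lens level as a covariate (edgeR adjusted p = 0.324 for Glul and 0.165 for Slc1a3). The summed FPKM of 9 lens markers was 1.17 to 8.26 in OIR and 4.28 to 28.7 in normoxic libraries, so the lens level moves with the groups.

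Other genes of glutamate, GABA and glycine handling also moved both ways, with 3 of 11 higher and 3 lower in OIR and a median log2 fold change of 0.03. Slc7a11, the cystine and glutamate exchanger gene, averaged 5.99 ± 1.91 CPM in OIR and 2.91 ± 0.85 CPM in normoxic libraries (SD, n = 6 each; log2 fold change 1.04 ± 0.23 SE, edgeR adjusted p = 0.00162). Slc1a2, which encodes the glutamate carrier GLT-1 of neurons and astrocytes, rose by 0.17 ± 0.05 (log2, SE; edgeR adjusted p = 0.0085). The call of Slc7a11 was lost within replicates 4 to 6 (log2 fold change 0.64, edgeR adjusted p = 0.12) and with the lens covariate (0.96, edgeR adjusted p = 0.0563). Slc1a2 lost its call with the lens covariate at a similar log2 fold change (0.17, edgeR adjusted p = 0.0798). Slc6a9, a glycine carrier gene, fell by 0.43 ± 0.06 (log2, SE; edgeR adjusted p = 2.43e-05). Slc6a9 is also a marker of glycinergic amacrine cells, and 5 of 5 amacrine markers, Slc6a9 among them, were lower in OIR, at a summed 54.1 to 67.0 FPKM in OIR and 80.0 to 101 FPKM in normoxic libraries. The part of amacrine RNA in the change of Slc6a9 was not tested.

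The water channel gene fell and the potassium channel gene did not pass the test. Aqp4 encodes aquaporin-4, the water channel of the Müller end feet and of astrocytes (chromosome 18, 15522553 to 15544039). Its lowest, median and highest levels were 68.4, 75.9 and 82.9 CPM in OIR libraries, against 87.3, 97.2 and 102 CPM in normoxic libraries. The groups did not overlap. Aqp4 averaged 75.0 ± 5.89 CPM in OIR and 95.4 ± 6.17 CPM in normoxic libraries (SD, n = 6 each), a log2 fold change of -0.35 ± 0.06 (SE, edgeR adjusted p = 0.000153). Its call held within replicates 4 to 6 (-0.24 ± 0.07, SE, edgeR adjusted p = 0.0259) and within 1 to 3 (-0.45 ± 0.06, SE, edgeR adjusted p = 1.79e-06). Astrocytes also make Aqp4, and 5 of 6 astrocyte markers were higher in OIR, at a summed 27.1 to 29.8 FPKM in OIR and 15.02 to 22.6 FPKM in normoxic libraries. The part of astrocyte RNA in the Aqp4 result was not tested.

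Kcnj10 encodes Kir4.1, the inward rectifier through which Müller glia pass potassium (chromosome 1, 172168777 to 172201652). From lowest over median to highest, Kcnj10 stood at 46.5, 47.7 and 51.8 CPM in OIR libraries, against 47.2, 54.8 and 56.6 CPM in normoxic libraries. The groups overlapped, and 2 of 6 OIR libraries lay below all normoxic ones. Its log2 fold change was -0.14 ± 0.05 (SE), with a 95% interval of -0.25 to -0.03 before adjustment over all genes and an edgeR adjusted p of 0.0596. This result lies close to the threshold. Kcnj10 passed when OIR replicate 3 (edgeR adjusted p = 0.0384), normoxic replicate 5 (edgeR adjusted p = 0.0164) or normoxic replicate 6 (edgeR adjusted p = 0.0493) was left out. It also passed over all 12 libraries with the set of replicates as a covariate (log2 fold change -0.14, edgeR adjusted p = 0.0312). Within replicates 4 to 6 its log2 fold change was -0.10 ± 0.07 (SE, edgeR adjusted p = 0.361), and within replicates 1 to 3 it was -0.17 ± 0.06 (SE, edgeR adjusted p = 0.0433), with a difference between the sets of 0.07 ± 0.09 that did not pass (SE, edgeR adjusted p = 0.727).

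Among 11 other genes of potassium and water handling, 4 were higher and 2 lower in OIR, with a median log2 fold change of 0.03. Dag1, which encodes the dystroglycan that anchors Kir4.1 and aquaporin-4 at the end feet, rose by 0.53 ± 0.06 (log2, SE; edgeR adjusted p = 7.35e-07). The potassium leak channel genes Kcnk2 (log2 fold change -0.78 ± 0.17 SE, edgeR adjusted p = 0.0015) and Kcnk1 (-0.30 ± 0.08 SE, edgeR adjusted p = 0.00724) fell. The call of Kcnk1 was lost within replicates 4 to 6 (edgeR adjusted p = 0.464) and with the lens covariate (log2 fold change -0.15, edgeR adjusted p = 0.313).

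Neither carbonic anhydrase gene passed the test. Car2 encodes the cytosolic carbonic anhydrase II, abundant in Müller glia and in red blood cells (chromosome 3, 14951333 to 14965830). From lowest over median to highest, Car2 stood at 475, 532 and 697 CPM in OIR libraries, against 582, 615 and 637 CPM in normoxic libraries. In 5 of 6 OIR libraries Car2 was below all normoxic libraries, and OIR replicate 6, at 697 CPM, was above all of them. Its log2 fold change was -0.15 ± 0.07 (SE, 95% interval -0.30 to -0.004 before adjustment, edgeR adjusted p = 0.115). This value rests on OIR replicate 6: without it, the log2 fold change was -0.23 and Car2 passed the test (edgeR adjusted p = 0.00119). Its log2 fold change was near 0 within replicates 4 to 6, at -0.01 ± 0.07 (SE, edgeR adjusted p = 0.976), and -0.31 ± 0.05 within replicates 1 to 3 (SE, edgeR adjusted p = 1.14e-05). The red blood cell markers were higher in OIR, with 4 of 4 tested called and a summed 141 to 300 FPKM in OIR against 70.0 to 169 FPKM in normoxic libraries. OIR replicate 6 had the lowest red blood cell sum of the OIR libraries, at 141 FPKM, beside the highest Car2 level, which is an observation on 1 library. Of the OIR libraries, replicate 6 also had the lowest microglial sum, at 59.2 FPKM. Its rod (9201), cone (563), lens (8.26) and ganglion cell (167 FPKM) sums were the highest of the OIR libraries. The part of red blood cell RNA in the Car2 result was not tested.

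Car14 encodes the membrane-bound carbonic anhydrase XIV, which faces the outside of Müller glia and of the pigment epithelium (chromosome 3, 95805080 to 95812003). The level of Car14 had a lowest, median and highest value of 52.3, 70.1 and 81.1 CPM in OIR libraries, against 61.3, 69.4 and 75.9 CPM in normoxic libraries. The OIR range enclosed the normoxic range, with 2 OIR libraries below and 2 above it. Its log2 fold change was -0.01 ± 0.09 (SE, edgeR adjusted p = 0.931), with a 95% interval of -0.20 to 0.17. Its coefficient of variation was 16.3% in OIR and 7.01% in normoxic libraries. The OIR libraries parted by set, at 73.0 to 81.1 CPM in replicates 4 to 6 and 52.3 to 67.2 CPM in replicates 1 to 3. Relative to Car2, the Car14 level per length was 10.5 to 13.0 in OIR and 9.78 to 12.4 in normoxic libraries, as FPKM of Car14 per 100 FPKM of Car2, and these ranges overlapped.

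Of 11 other genes of pH, bicarbonate and lactate handling, 4 rose and 2 fell, with a median log2 fold change of 0.03. Slc16a3, which encodes the lactate exporter MCT4, averaged 161 ± 16.2 CPM in OIR and 76.1 ± 16.1 CPM in normoxic libraries (SD, n = 6 each; log2 fold change 1.08 ± 0.11 SE, edgeR adjusted p = 6.95e-07). Bsg, which encodes the chaperone of the lactate carriers, rose by 0.40 ± 0.04 (log2, SE; edgeR adjusted p = 1.5e-06). Slc4a3, an anion exchanger gene of Müller glia and neurons, fell by 0.57 ± 0.05 (log2, SE; edgeR adjusted p = 7.43e-08). Car3, a cytosolic carbonic anhydrase gene, fell from a low level, at 4.22 ± 0.84 CPM in OIR and 6.33 ± 1.54 CPM in normoxic libraries (SD, n = 6 each; log2 fold change -0.58 ± 0.17 SE, edgeR adjusted p = 0.0161). The call of Car3 was lost within replicates 4 to 6 (edgeR adjusted p = 0.645) and with the lens covariate (edgeR adjusted p = 0.213).

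Rlbp1 fell. It encodes CRALBP, the retinaldehyde-binding protein of Müller glia and pigment epithelium (chromosome 7, 79024618 to 79036796). Lowest, median and highest Rlbp1 levels were 412, 488 and 526 CPM in OIR libraries, against 570, 625 and 652 CPM in normoxic libraries. The groups did not overlap, and the OIR libraries of replicates 1 to 3, at 412 to 463 CPM, were the lowest of all. Rlbp1 averaged 479 ± 47.4 CPM in OIR and 616 ± 35.01 CPM in normoxic libraries (SD, n = 6 each), a log2 fold change of -0.36 ± 0.06 (SE, edgeR adjusted p = 0.000175). Since pigment epithelium also makes Rlbp1, the pigment epithelium markers stand beside it. Their summed level was 32.6 to 66.6 FPKM in OIR libraries, 64.7 to 74.6 FPKM in normoxic replicates 4 to 6 and 8.28 to 9.65 FPKM in normoxic replicates 1 to 3, and none of the 8 markers was called. With the pigment epithelium level as a covariate, chosen after its split was seen, the log2 fold change of Rlbp1 was -0.34 (edgeR adjusted p = 9.73e-05).

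Of 9 other retinoid genes, 3 rose and 1 fell, with a median log2 fold change of 0.02. Aldh1a1, which makes retinoic acid, rose by 0.48 ± 0.07 (log2, SE; edgeR adjusted p = 7.66e-05). Crabp1, a retinoic acid-binding protein gene that amacrine cells also express, fell by 0.57 ± 0.14 (log2, SE; edgeR adjusted p = 0.004). With the lens covariate its log2 fold change was -0.52 and the call was lost (edgeR adjusted p = 0.0728).

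Of the lipid and secreted-protein members, Abca8a fell, Clu rose and Dkk3 did not pass the test. Abca8a encodes a lipid transporter of the ABC family (chromosome 11, 109916460 to 109986804). Its lowest, median and highest levels were 108, 122 and 132 CPM in OIR libraries, against 147, 176 and 195 CPM in normoxic libraries. The groups did not overlap. Abca8a averaged 122 ± 9.67 CPM in OIR and 172 ± 23.0 CPM in normoxic libraries (SD, n = 6 each), a log2 fold change of -0.50 ± 0.08 (SE, edgeR adjusted p = 7.14e-05), the furthest from 0 of the 10 members. The promoter window of Abca8a holds the CACGTG letters shown above, and that of Car14, which had a log2 fold change of -0.01, also holds ACGTG. Clu encodes clusterin, a secreted chaperone that carries lipids (chromosome 14, 66205932 to 66218996). Lowest, median and highest Clu levels were 707, 761 and 875 CPM in OIR libraries, against 494, 630 and 717 CPM in normoxic libraries. In 4 of 6 OIR libraries Clu was above all normoxic libraries, and the other 2, OIR replicates 4 and 5, lay just inside the top of the normoxic range. Clu averaged 773 ± 67.1 CPM in OIR and 619 ± 89.4 CPM in normoxic libraries (SD, n = 6 each), a log2 fold change of 0.32 ± 0.08 (SE, edgeR adjusted p = 0.00638). Dkk3 encodes a secreted protein of the Dickkopf family (chromosome 7, 111715224 to 111758264). Lowest, median and highest Dkk3 levels were 575, 598 and 698 CPM in OIR libraries, against 535, 620 and 685 CPM in normoxic libraries. The groups were intermixed, and the log2 fold change was 0.00 ± 0.06 (SE, edgeR adjusted p = 0.972) with a 95% interval of -0.13 to 0.14.

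Of 12 other lipid and secreted-protein genes tested, 5 rose and 1 fell, with a median log2 fold change of 0.33. Sparc, a matrix glycoprotein gene, averaged 928 ± 64.8 CPM in OIR and 478 ± 50.9 CPM in normoxic libraries (SD, n = 6 each; log2 fold change 0.96 ± 0.07 SE, edgeR adjusted p = 5.76e-09). Abca1, which exports cholesterol and phospholipid and is of the same transporter family as Abca8a, rose by 0.70 ± 0.06 (log2, SE; edgeR adjusted p = 6.01e-08). Frzb, a secreted Wnt antagonist gene, fell by 0.34 ± 0.07 (log2, SE; edgeR adjusted p = 0.00109). The part of RNA from other cells in these changes was not tested.

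The OIR effect on the members differed between the sets of replicates. Within replicates 4 to 6, 1 member was higher in OIR (Clu) and 3 lower (Rlbp1, Aqp4 and Abca8a), where 11.6% of all tested genes were called higher and 8.36% lower. Within replicates 1 to 3, 2 members were higher (Slc1a3 and Clu) and 7 lower, all but Car14 of the remaining 8, where 20.3% of all tested genes were called higher and 18.6% lower. The median log2 fold change of the members was -0.02 within replicates 4 to 6 and -0.24 within replicates 1 to 3, while that of all tested genes was 0.00 in both. A test of the difference itself, the interaction of group and set in edgeR, called 7 of the 10 members and 8.21% of all tested genes, 1501 in number. Without normoxic replicate 5 it called 4 members and 901 genes, without normoxic replicate 1 it called 4 members, and limma on FPKM called 3. The sets had been noticed in these data beforehand, so this test is not independent of them.

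**Figure D2:**
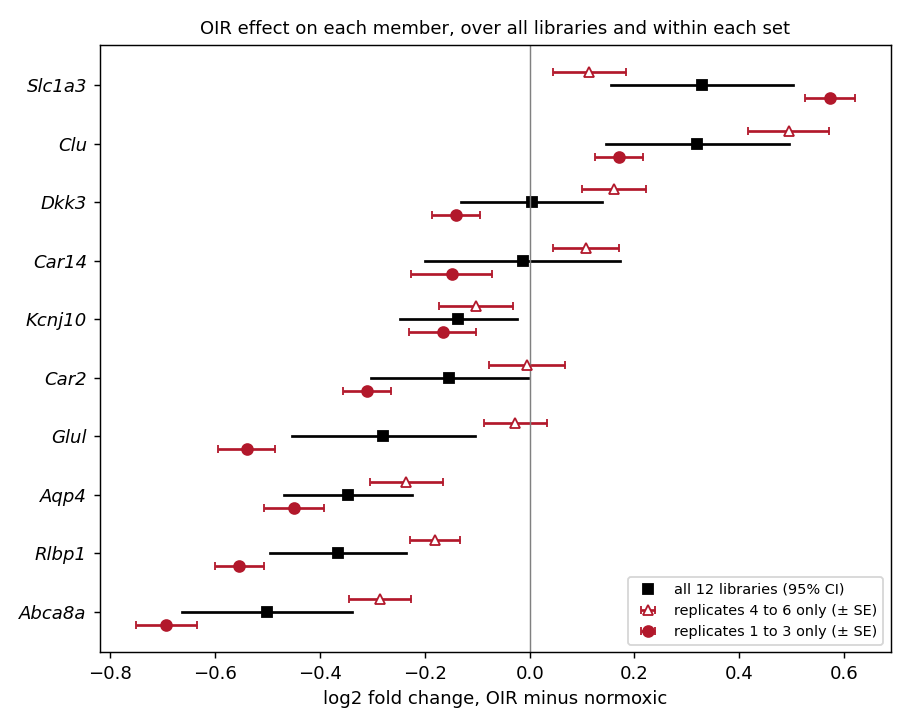
Log2 fold change (OIR minus normoxic) of each member over all 12 libraries (black squares, line is the 95% confidence interval) and within replicates 4 to 6 (open triangles) and 1 to 3 (filled circles, bars are SE). Within replicates 4 to 6 the effects of Rlbp1, Abca8a and Slc1a3 lie nearer 0 than within 1 to 3, that of Glul lies near 0, that of Clu is larger, and Dkk3 changes side.

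For Glul, the log2 fold change was -0.03 ± 0.06 within replicates 4 to 6 and -0.54 ± 0.05 within replicates 1 to 3 (SE), a difference of 0.51 ± 0.09 (SE, edgeR adjusted p = 0.000988). Both groups parted by set and in opposite directions: in OIR libraries Glul was at 1353 to 1616 CPM for replicates 4 to 6 against 1047 to 1275 CPM for replicates 1 to 3, and in normoxic libraries at 1424 to 1540 CPM for replicates 4 to 6 against 1683 to 1710 CPM for replicates 1 to 3. Rlbp1 showed the same layout, in OIR libraries 514 to 526 CPM for replicates 4 to 6 against 412 to 463 CPM for replicates 1 to 3, and in normoxic libraries 570 to 617 CPM for replicates 4 to 6 against 632 to 652 CPM for replicates 1 to 3. Its groups did not overlap in either set. For Slc1a3 the OIR sets overlapped and the normoxic sets did not, at 204 to 218 CPM in normoxic replicates 4 to 6 and 159 to 164 CPM in normoxic replicates 1 to 3. Abca8a and Clu likewise overlapped between the OIR sets and not between the normoxic sets, both with lower levels in normoxic replicates 4 to 6. The effect of Clu was larger within replicates 4 to 6, at 0.49 ± 0.08 against 0.17 ± 0.05 within replicates 1 to 3 (log2, SE). Dkk3 had opposite signs, 0.16 ± 0.06 within replicates 4 to 6 (SE, edgeR adjusted p = 0.0836) and -0.14 ± 0.05 within replicates 1 to 3 (SE, edgeR adjusted p = 0.0189). In Dkk3 the OIR and normoxic libraries did not overlap within either set.

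Several marker sums also parted the normoxic sets. The cone sum was 402 to 444 FPKM in normoxic replicates 4 to 6 and 671 to 715 FPKM in normoxic replicates 1 to 3, the red blood cell sum 70.0 to 73.9 against 125 to 169 FPKM, and the ganglion cell sum 224 to 234 against 182 to 205 FPKM, beside the pigment epithelium sum given above. In OIR libraries the bipolar sum was 223 to 224 FPKM for replicates 4 to 6 against 194 to 218 FPKM for replicates 1 to 3. In normoxic libraries it was 262 to 282 against 285 to 306 FPKM. The amacrine sum was 63.3 to 67.0 against 54.1 to 58.7 FPKM in OIR libraries. In normoxic libraries it was 80.0 to 84.4 against 92.8 to 101 FPKM. Both sums thus had the layout of Glul and Rlbp1. The astrocyte and endothelial sums also parted the normoxic sets. The part of these levels in the differences of the members between sets was not tested. With the pigment epithelium level as a covariate, 2 members higher and 4 lower passed the test, as over all libraries without it, and 6027 genes in all passed, against 5673 without it. In that fit the log2 fold change was -0.24 for Glul (edgeR adjusted p = 0.0216), 0.25 for Slc1a3 (edgeR adjusted p = 0.00107), -0.41 for Abca8a (edgeR adjusted p = 5.47e-06) and 0.43 for Clu (edgeR adjusted p = 2.93e-06).

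Per gene length, as deposited FPKM, Glul was the most abundant member in both groups, at 345 ± 47.8 FPKM in OIR and 421 ± 32.9 FPKM in normoxic libraries (SD, n = 6 each). Kcnj10 was the least abundant, at 8.90 ± 0.43 FPKM in OIR and 9.85 ± 0.66 FPKM in normoxic libraries. The order in OIR libraries was Glul, Car2, Clu, Dkk3, Rlbp1, Slc1a3, Car14, Abca8a, Aqp4 and Kcnj10. The order in normoxic libraries was Glul, Car2, Rlbp1, Dkk3, Clu, Abca8a, Car14, Slc1a3, Aqp4 and Kcnj10. Clu and Slc1a3 thus stood higher in the OIR order, and Rlbp1 and Abca8a lower. These orders rest on the gene lengths behind the deposited FPKM, which equalled the table's length column for 2 of the 10 members and were shorter for the others, so another choice of length can give another order. Neighbours were not all separated. In OIR libraries the FPKM ranges of Glul and Car2, Car2 and Clu, Dkk3 and Rlbp1, Slc1a3 and Car14, and Car14 and Abca8a overlapped. In normoxic libraries those of Rlbp1 and Dkk3, Dkk3 and Clu, Abca8a and Car14, and Car14 and Slc1a3 overlapped. Glul, Car2, Rlbp1, Dkk3 and Clu were at 139 FPKM or more in every library, and the other 5 members at 31.3 FPKM or less.

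**Figure D3:**
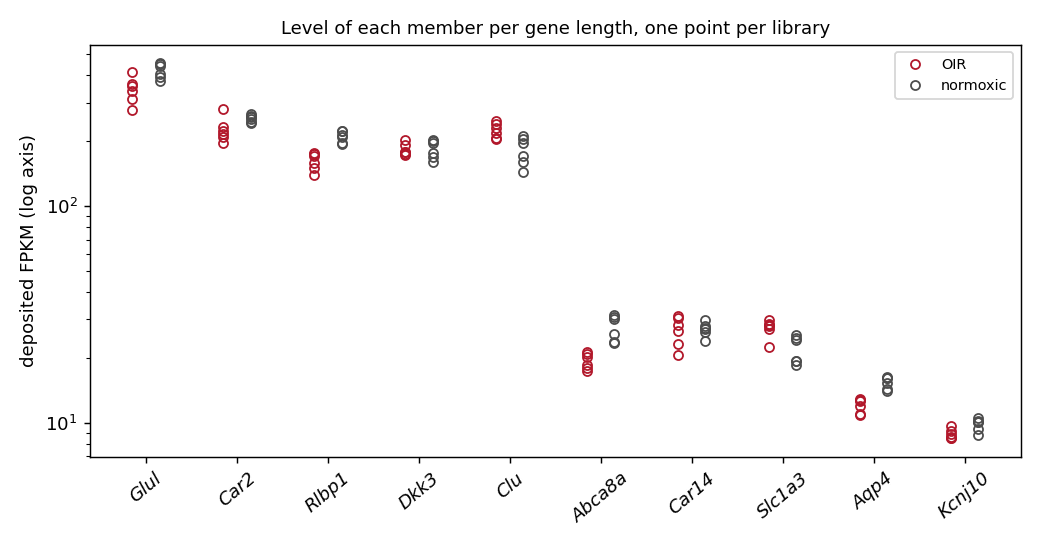
Deposited FPKM of each member on a log axis, with a point for each library, OIR left of normoxic, ordered by the normoxic mean. Glul is highest and Kcnj10 lowest in both groups, and Glul, Car2, Rlbp1, Dkk3 and Clu form a high class apart from the other 5.

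The balance between members shifted within libraries, where library depth cancels. The level of Clu was 55.9 to 86.7 FPKM per 100 FPKM of Glul in OIR libraries and 38.2 to 46.1 in normoxic libraries, so these groups did not overlap. The level of Slc1a3 was 5.39 to 10.1 FPKM per 100 FPKM of Glul in OIR libraries and 4.19 to 6.53 in normoxic libraries, and OIR replicate 6, at 5.39, was the lowest OIR library and lay inside the normoxic range. Glul made up 24.8 to 29.5% of the summed member FPKM in OIR libraries and 30.5 to 31.7% in normoxic libraries, without overlap. The 10 members together took 0.387 to 0.479% of all counts in OIR libraries, with a median of 0.427%, and 0.42 to 0.498% in normoxic libraries, with a median of 0.464%. These summed shares overlapped. The ratios follow from the called members and were not tested.

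**Figure D4:**
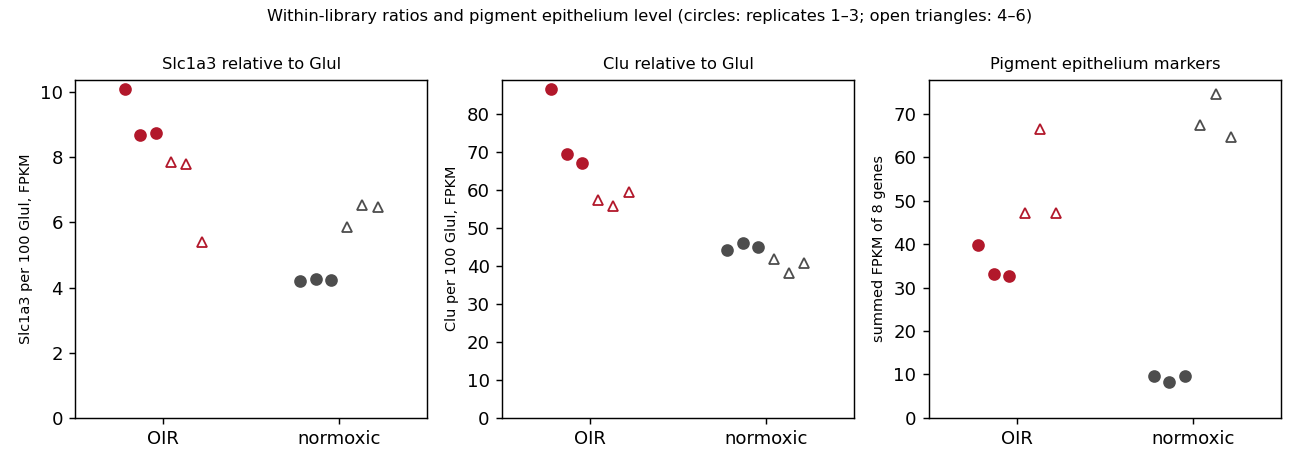
FPKM of Slc1a3 and of Clu per 100 FPKM of Glul, and summed FPKM of 8 pigment epithelium markers, in every library (filled circles are replicates 1 to 3, open triangles replicates 4 to 6). Clu relative to Glul separates OIR from normoxic libraries, Slc1a3 relative to Glul does so except for OIR replicate 6, and the pigment epithelium sum is lowest in normoxic replicates 1 to 3, at 8.28 to 9.65 FPKM.

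The members were set beside 11 genes that define Müller glia. Since 9 of the 11 are members, these genes are no independent check of the label. All 11 passed the filter. Over all libraries their summed level was 1410 to 1749 FPKM in OIR and 1392 to 1729 FPKM in normoxic libraries, so the groups overlapped. Within each set the groups did not overlap, and the direction differed. In replicates 4 to 6 the sum was higher in OIR, at 1564 to 1749 FPKM against 1392 to 1460 FPKM in normoxic libraries. In replicates 1 to 3 it was lower in OIR, at 1410 to 1543 FPKM against 1670 to 1729 FPKM in normoxic libraries. Of the 11 genes, Sox9, Slc1a3 and Clu were higher in OIR and the same 4 members as above were lower. Markers of other retinal cells moved beside the members. All 5 bipolar markers, 5 of 5 amacrine markers and 3 of 6 ganglion cell markers were lower in OIR, while 6 of 7 endothelial and 5 of 7 microglial markers were higher. The bipolar sum was 194 to 224 FPKM in OIR and 262 to 306 FPKM in normoxic libraries, and the rod sum was 8341 to 9201 FPKM in OIR and 7711 to 8562 FPKM in normoxic libraries. The rod sums overlapped, and of 6 rod markers 0 were called higher and 1 lower (Pde6b). Among the oligodendrocyte markers, Mog, Mag, Mobp and Cldn11 were under 1 FPKM in every library. The part of these shifts in the changes of the members was not tested.

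Other Müller glia genes set the members in context. Of 12 transcription factor genes of Müller identity, 4 rose and 1 fell, with a median log2 fold change of 0.11. Sox9, needed for Müller glia to form, rose by 0.77 ± 0.09 (log2, SE; edgeR adjusted p = 5.42e-06), and Nfib, a factor of late glial maturation, by 0.39 ± 0.06 (log2, SE; edgeR adjusted p = 0.000136). Rax, a retinal homeobox gene kept on in Müller glia, fell by 0.17 ± 0.05 (log2, SE; edgeR adjusted p = 0.0188), and lost its call within replicates 4 to 6 (edgeR adjusted p = 0.688) and with the lens covariate (-0.13, edgeR adjusted p = 0.252). Of 12 further Müller glia markers, 8 rose and none fell, with a median log2 fold change of 0.58. Among them, Cavin1, a coat protein gene of caveolae, rose by 1.49 ± 0.08 and Vim, an intermediate filament gene, by 1.42 ± 0.07 (log2, SE; edgeR adjusted p = 2.43e-10 and 5.37e-11). The endothelial sum also rose, at 96.7 to 141 FPKM in OIR and 56.3 to 75.5 FPKM in normoxic libraries. The part of RNA from other cells in the rises of these markers was not tested. All 13 reactive gliosis genes, Vim again among them, rose, with a median of 2.40. This list was chosen with earlier results of these data known, so its count is a description. Of all tested genes, 16.2% were called higher. Gfap, the intermediate filament gene that marks gliosis, averaged 225 ± 63.9 CPM in OIR and 16.4 ± 3.598 CPM in normoxic libraries (SD, n = 6 each; log2 fold change 3.77 ± 0.18 SE, edgeR adjusted p = 4.75e-11). No member came near these values: the member furthest from 0, Abca8a, had a log2 fold change of -0.50.

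**Figure D5:**
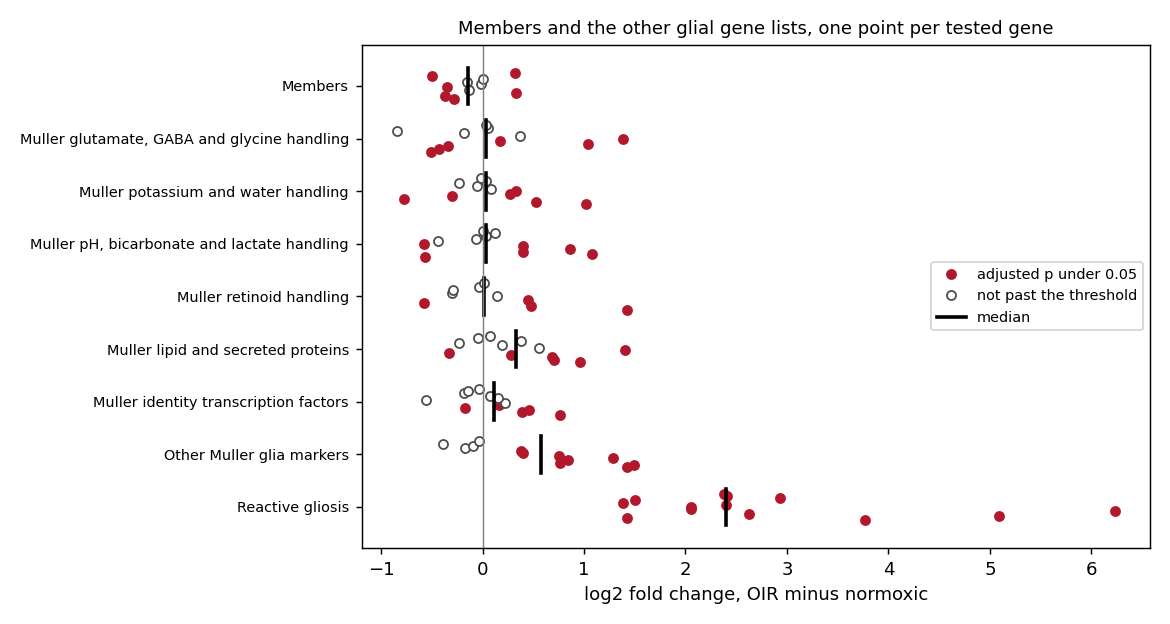
Log2 fold change (OIR minus normoxic) of each tested gene of the members and of 8 other glial lists; filled points passed edgeR's test at an adjusted p under 0.05, open points did not, and black bars are list medians. The members lie between -0.50 and 0.33 on both sides of 0, while all 13 reactive gliosis genes lie on the right, with a median of 2.40.

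Library-to-library likeness was described by the Pearson r of each member's log2 CPM deviations from its group means over the 12 libraries, against 10270 genes with a mean of at least 10 CPM. The libraries share the set structure described above, so these values are a description. The pattern of Glul was most like those of Gucy1a1 (r = 0.952) and Fxyd6 (r = 0.930). That of Rlbp1 was most like Calb1 (r = 0.950) and Ppp1r1a (r = 0.938), and that of Slc1a3 most like Arid3b (r = 0.984) and Rhbdf2 (r = 0.972). Aqp4 was nearest to Jag1 (r = 0.898) and Abhd18 (r = 0.890), and Kcnj10 to Arhgef19 (r = 0.899) and Tmem184b (r = 0.894). Car14 was nearest to Rsph3a (r = 0.942) and Mrpl57 (r = 0.925), and Car2 to Vdac1 (r = 0.958) and Arhgef10l (r = 0.951). Abca8a was nearest to Slco1a4 (r = 0.965) and Samhd1 (r = 0.954), Clu to Tnnt1 (r = 0.978) and Brca2 (r = 0.956), and Dkk3 to Pde8a (r = 0.971) and Hrh3 (r = 0.965). No member was among the 2 nearest genes of another member.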

How the data were processed

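RNA was measured in 12 retina libraries, 6 OIR and 6 normoxic, from total RNA with capture of poly-A transcripts, per the labels' protocols. Per the submitters' processing notes, the tools were Trimmomatic, HISAT2 (version 2.0.5) and HTSeq and the build was GRCm39, with no roles given. Strand use during counting was not given in the sources used here. Whether reads of a gene and of an antisense partner were kept apart is therefore not known. The authors deposited whole-number counts and FPKM per gene, per the file headers, and each FPKM value was the count over library total and gene length, with a length that was fixed across libraries.

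The test on counts was that of edgeR 4.0.16 under R 4.3.3, with filterByExpr at a minimum count of 10 and a minimum total of 15, TMM scaling, the quasi-likelihood test and Benjamini-Hochberg adjustment over all tested genes, and a threshold of 0.05. Standard errors and 95% intervals come from the same fit. FPKM was used for levels between genes and for marker sums. The procedure was tested on simulated data. Alternatives used DESeq2 version 1.42.0, limma version 3.58.1 on log2(FPKM + 1) and log2(FPKM + 0.1), other filters and scalings, covariates, sets of replicates and leaving out each library in turn.

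Groups and replicate numbers came from the sample titles. The members, the other gene lists, the sets of replicates and the tests were chosen with earlier results of these data known, and the pigment epithelium covariate was added after seeing the data. Named genes of each other list were up to 2 in each direction with the smallest adjusted p, of which 3 are not reported here. Likeness used log2(CPM + 0.5). Total counts of 17361979 to 21594618 per library limit the precision of low genes. Promoter windows were matched by symbol from RefSeq (GRCm38.p6), and their coordinates were not combined with those of GRCm39.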

Additional observations from a re-analysis of the deposited data

Results flagged for a closer look

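The OIR effect differed between the sets of replicates in 7 members, by edgeR's test of the interaction of group and set with Benjamini-Hochberg adjustment over all tested genes. The differences of the log2 fold change, replicates 4 to 6 minus replicates 1 to 3, were 0.51 for Glul, 0.38 for Rlbp1, -0.46 for Slc1a3, 0.31 for Car2, 0.30 for Dkk3, 0.41 for Abca8a and 0.32 for Clu. The edgeR adjusted p was 0.000988 for Glul, 0.00108 for Rlbp1, 0.00221 for Slc1a3, 0.00544 for Abca8a, 0.0228 for Dkk3, 0.0424 for Car2 and 0.0429 for Clu. The difference was positive in 9 of the 10 members, with Slc1a3 as the exception, and in 50.9% of all tested genes. For Glul, Rlbp1 and Slc1a3 the difference passed under each of 19 alternatives. For Car2 it was lost under 12 of 19, for Clu under 11, for Dkk3 under 5 and for Abca8a under 2, both limma on FPKM. Without OIR replicate 6 the difference was 0.19 for Car2 (edgeR adjusted p = 0.0665) and 0.21 for Clu (edgeR adjusted p = 0.075). Without OIR replicate 5 that of Aqp4 passed (0.29, edgeR adjusted p = 0.0431), and without OIR replicate 3 that of Car14 (0.36, edgeR adjusted p = 0.0362). The labels give no date or batch for the sets, and what sets them apart was not tested.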

How the results depend on the processing

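Under 26 alternatives, Rlbp1, Aqp4, Abca8a and Clu kept their direction and their call, with edgeR, DESeq2 or limma adjusted p of at most 0.0204, 0.0259, 0.00522 and 0.0346. The count of members called was 4 to 9, where 3034 to 7226 genes were called in all. Within replicates 4 to 6, 3671 genes and, among the members, 1 higher were called, and with the lens covariate 3034 genes and 1 higher member. Within replicates 1 to 3, 7226 genes were called, and 7 members were called lower, Dkk3 (-0.14) among them, which over all libraries was at 0.00. Leaving out each of 12 libraries gave 5073 to 5870 genes and 6 to 7 members. The interaction of group and set called 933 and 924 genes, and 3 members each, with limma on log2(FPKM + 1) and log2(FPKM + 0.1), and 901 to 1565 genes and 4 to 8 members when a library was left out, the low ends both without normoxic replicate 5, and 4 members also without normoxic replicate 1. The cause of these shifts was not tested. Replicate numbers did not pair the libraries: deviations of same-numbered libraries correlated at -0.03 to 0.13, and 2 of 6 matched their own number best. With the replicate number as a block, 5675 genes and 6 members, 2 higher and 4 lower, were called, and the block changed no member's call.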
